A study of Mus musculus with 2 samples.

Results

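The genes described here encode the proteins of the cytosolic ribosome. They were chosen by symbol from the autosomal protein-coding genes of the mm10 RefSeq gene table: Rpl or Rps followed by a number, with an optional a, l or x, together with Rpsa and Rplp0 to Rplp2. The rule found 77 of 20661 genes, of which 47 belong to the large subunit (3 of them to its stalk) and 30 to the small subunit. They lie on 18 chromosomes, 14 of them on chromosome 7. The assay was ATAC-seq, where the transposase Tn5 cuts and tags accessible DNA. There was 1 library from WT mice, which carried Lyz2-Cre, and 1 from Tle4cKO mice, which carried Tle4f/f and Lyz2-Cre; all were male C57BL/6 mice aged 18.9 weeks, and the labels name no treatment. Lyz2-Cre is active in myeloid cells and was present in both groups, and Tle4 encodes a transcriptional corepressor of the Groucho family. Each library held colonic macrophages pooled from 2 mice and sorted as CD64-positive, Ly6C-low cells without Siglec-F.

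Most ribosomal protein genes are active in every growing cell, and most of their products are needed in equal amounts, since a ribosome is built from a largely fixed set of them. Their promoters are known for a start site at a C within a run of pyrimidines. The messenger RNA then begins with a terminal oligopyrimidine (TOP) tract, through which mTOR and Larp1 control its translation. Many of the genes carry small nucleolar RNAs (snoRNAs) in their introns, which guide the modification of ribosomal RNA. As a housekeeping group, these genes serve to ask whether open chromatin at constantly used promoters differed between the WT and Tle4cKO libraries.

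The deposited data are 1 peak list per library, with 128737 peaks in WT and 128129 in Tle4cKO. The pileup is the height of the read stack at a peak's summit, a whole number of at least 7. Its median over all peaks was 28 in WT and 20 in Tle4cKO, and no scaling between the lists is recorded, so levels are read within a list. Of the macrophage markers, 12 of 12 had a gene-end peak in each library, with a median lead pileup of 141 in WT and 110 in Tle4cKO. Markers of other cell types had one in 9 of 11 autosomal genes in WT and 7 of 11 in Tle4cKO, with medians of 39 and 30, and Ncr1 and Tpsb2 had none. Among these markers, Siglecf had 101 in WT (chr7:43349510-43350348) and 30 in Tle4cKO (chr7:43351066-43351653), at lead peaks that did not overlap. None of its 3 WT peaks in the span plus 1 kb was in the WT list only. The WT lead peak of Siglecf thus overlapped a Tle4cKO peak that lay beyond the 1000 bp limit, whose pileup is not given here. Pecam1 had 171 in WT (chr11:106716227-106717356), at the edge of the 1000 bp limit around the gene end at 106715281. It had no gene-end peak in Tle4cKO. The Siglecf values of 101 and 30 are thus from different sites, and how far the limit accounts for the Pecam1 difference was not tested. The part of other cells in the values at ribosomal protein genes was not tested. In pooled cells, fewer cells with an open site and a less open site in each cell cannot be told apart. With 1 library per genotype there is no replicate check, and no p-value between genotypes was computed. All intervals cover counting error only.

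The promoter sequences show what the family shares and where it divides. RefSeq promoter sequences of GRCm38.p6, the assembly behind mm10, were matched by gene for 57 of the 77 members, each from 250 bases before to 50 bases after the annotated start. Where a gene had several annotated starts, the start nearest the WT summit was used. The stretch from 60 bases before the start through the first 20 transcribed bases is given below for 8 members, 5′ to 3′ on the sense strand. Capitals mark the longest run of C and T that touches the 10 bases on either side of the start. Rpl15, Rpl27a and Rpl7a are shown for their long runs, and Rps6 with a run of 10 bases over its start. Rps19 is shown for the highest pileup of the group, and Rpl32l, Rpl39l and Rpl10l because no peak was listed at them.
Rps6: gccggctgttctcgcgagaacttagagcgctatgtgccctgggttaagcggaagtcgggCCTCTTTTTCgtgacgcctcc
Rpl15: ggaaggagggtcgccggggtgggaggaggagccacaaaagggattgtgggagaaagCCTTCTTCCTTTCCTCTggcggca
Rpl27a: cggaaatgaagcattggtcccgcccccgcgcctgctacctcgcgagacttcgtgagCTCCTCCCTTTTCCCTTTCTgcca
Rpl7a: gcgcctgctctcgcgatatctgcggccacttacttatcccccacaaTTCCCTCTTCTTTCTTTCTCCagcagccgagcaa
Rps19: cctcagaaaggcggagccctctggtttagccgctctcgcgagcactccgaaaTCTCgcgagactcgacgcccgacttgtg
Rpl32l: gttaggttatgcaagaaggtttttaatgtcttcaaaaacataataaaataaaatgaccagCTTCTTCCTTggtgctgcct
Rpl39l: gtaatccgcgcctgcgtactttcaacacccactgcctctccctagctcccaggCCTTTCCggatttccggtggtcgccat
Rpl10l: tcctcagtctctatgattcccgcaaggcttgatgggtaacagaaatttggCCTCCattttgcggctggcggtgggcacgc
These stretches lie at chr4:86857348-86857427, minus strand (Rps6); chr14:18270967-18271046, minus strand (Rpl15); chr7:109519135-109519214, plus strand (Rpl27a) and chr2:26910747-26910826, plus strand (Rpl7a). The others lie at chr7:24884532-24884611, plus strand (Rps19), chr10:20208379-20208458, plus strand (Rpl32l), chr16:10170168-10170247, plus strand (Rpl39l) and chr12:66284382-66284461, minus strand (Rpl10l). The run was 10 bases long in Rps6, 17 in Rpl15, 20 in Rpl27a and 21 in Rpl7a. In Rps19, the gene mutated most often in Diamond-Blackfan anaemia, it was only 4 bases long, so a long run did not accompany every high peak. Rpl32l had a run of 10 bases at its start and no peak in either list.

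Over the 57 promoters, a run of at least 8 pyrimidines that covers the start itself was found in 16 (28.1%, 95% Wilson interval 18.1 to 40.8%). It was found in 3.79% of all 27025 promoters in the table and in 1 of 69 promoters of mitochondrial ribosomal protein genes. A run that touches the 10 bases on either side of the start, and need not cover it, was found in 25 (43.9%, 31.8 to 56.7%). That share was 13.4% of all promoters, 13.6% of the 12693 whose start lay inside a WT peak, and 13.0% of the mitochondrial ribosomal protein promoters. The first transcribed base was C in 18 of the 57 (31.6%), beside 16.2% of all promoters. Annotated starts can be off by some bases, which affects these counts. The ETS core CCGGAA, searched on both strands like the next 5 motifs, was found in 30 of the 57 (52.6%). It occurred in 15.5% of all promoters, in 26.8% of those with the start inside a WT peak, and in 56.5% of the mitochondrial ribosomal protein promoters. The YY1 motif AAGATGG was found in 8 (14.0%, against 6.47% of all promoters) and the NRF1 motif GCATGCG in 5 (8.77%, against 3.68%). Of promoters with the start inside a WT peak, 6.94% held the YY1 motif and 6.15% the NRF1 motif, the latter inside the members' interval of 3.81 to 18.9%. The mitochondrial ribosomal protein promoters held them in 18.8% and 11.6%. The SP/KLF motif GGGCGG was found in 31 (54.4%, interval 41.6 to 66.6%), above the 36.5% of all promoters. The interval held the 62.5% of promoters with an open start. The NF-Y motif CCAAT was found in 17 (29.8%, against 37.8%) and the E-box CACGTG in 5 (8.77%, against 7.23%), and the interval of each held the share of all promoters. No member had TATAAA on the sense strand starting 40 to 20 bases before the start (0%, interval to 6.31%), and 2.19% of all promoters did. The median member promoter held 22 CpG dinucleotides, against 7 over all promoters and 20 over those with an open start. Rpl32l and Rpl3l held 3 each, Rpl10l 13 and Rpl39l 17. A motif match describes the letters in the window and does not show that a factor was bound.

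**Figure D1:**
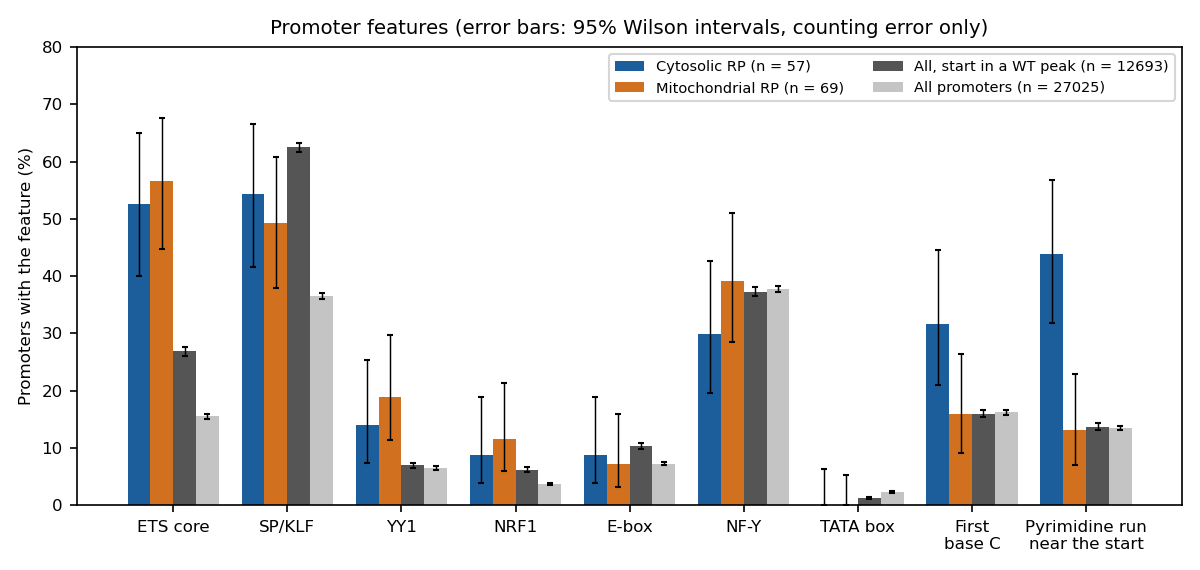
Share of promoters (%) that hold each motif or feature, for 57 cytosolic and 69 mitochondrial ribosomal protein (RP) genes, all promoters with the start inside a WT peak, and all promoters of the RefSeq table; error bars are 95% Wilson intervals. The ETS core stood high in both ribosomal protein groups, at 52.6% and 56.5%, while a pyrimidine run touching the 10 bases on either side of the start was found in 43.9% of the cytosolic group and 13.0% of the mitochondrial group.

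Open chromatin marked the ends of nearly every ribosomal protein gene in both libraries. A gene-end peak, meaning a peak within 1000 bp of either annotated end, was listed for 74 of 77 members in WT (96.1%, 95% Wilson interval 89.2 to 98.7%). In Tle4cKO it was listed for 72 of 77 (93.5%, 85.7 to 97.2%). The same was true of 68.1% of all autosomal protein-coding genes in WT and of 67.2% in Tle4cKO. The mitochondrial ribosomal protein genes had one in 77 of 78 and the proteasome subunit genes in 38 of 39, in each list.

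The 3 members with no peak in the gene or within 1 kb of it, in either list, were Rpl10l, Rpl39l and Rpl32l. Rpl10l and Rpl39l are known as autosomal, testis-expressed copies of the X-linked genes Rpl10 and Rpl39. Those X-linked genes, outside the rule, had lead pileups of 180 and 145 in WT and 156 and 103 in Tle4cKO. The remaining difference in count came from Rpl17 and Rps2, whose Tle4cKO peaks lay inside the gene just beyond the 1000 bp limit. At Rpl17 the WT peak had a pileup of 138 (chr18:74999892-75001387) and the Tle4cKO peak 118 (chr18:75000147-75001318). At Rps2, a small-subunit protein near the messenger RNA entry channel, the values were 164 (chr17:24719366-24720962) and 156 (chr17:24719410-24720783). Both pairs overlapped, and any peak in the gene span plus 1 kb was found at 74 members in each list.

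Rpl3l, the heart and skeletal muscle copy of Rpl3, had a gene-end peak that was not at its start. Its lead peak (169 in WT, 134 in Tle4cKO; chr17:24736003-24738131 in WT) covered the downstream end, where an end of Msrb1 also lies, and no annotated start of Rpl3l was inside a peak. Among the 57 members with promoter entries, an annotated start lay inside a peak in 53 in each list. The 4 without were Rpl3l, Rpl10l, Rpl39l and Rpl32l. The symbol of each ends in l, which marks a copy of another ribosomal protein gene. Rps27l, the copy of Rps27 known as a p53 target, differed from them, with 200 in WT and 171 in Tle4cKO over its start.

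Lead peaks, the gene-end peak of highest pileup at each gene, were strong and spread over a narrow range. In WT their pileup ran from 108 to 251 with a median of 156.5, and in Tle4cKO from 79 to 209 with a median of 127.5. The median member stood at percentile 94.6 of all WT peaks and 95.1 of all Tle4cKO peaks, and the lowest at 86.4 and 86.1. A pileup of at least 100 was reached by 74 of 77 members in WT, against 45.7% of other genes, and by 61 in Tle4cKO, against 36.3%. In WT the upper quartile was 1.26 times the lower, against 2.43 times over all other genes with a gene-end peak. The mitochondrial ribosomal protein genes gave 1.57 and the proteasome genes 1.34. Some other groups spread about as little. Translation factors and other TOP genes gave 1.24, ribosome biogenesis genes 1.25, and other genes chosen for a WT lead pileup in the members' range 1.35. The highest member was 2.32 times the lowest, beside 6.46 times for the mitochondrial ribosomal protein genes and 8.83 times for the proteasome genes, 1.87 times for the TOP genes and 1.92 times for the biogenesis genes.

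**Figure D2:**
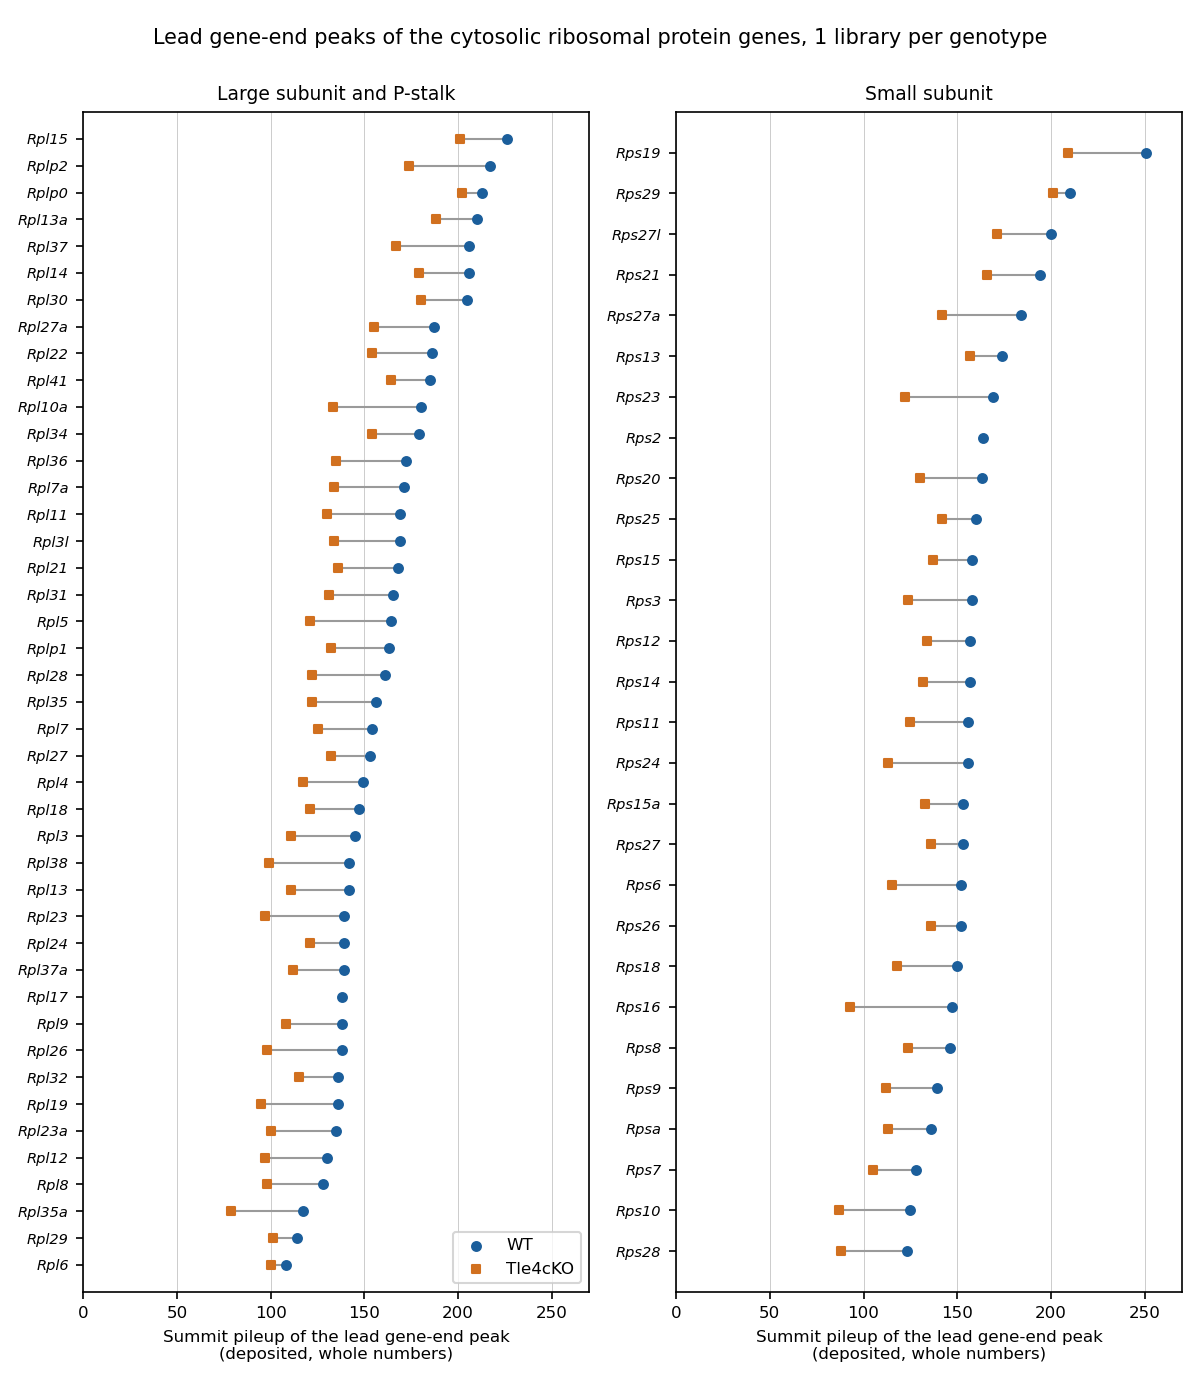
Summit pileup of the lead gene-end peak (whole numbers as deposited) for 71 of the 74 members with one in WT, as circles (WT) and squares (Tle4cKO) joined by a line, sorted by WT within each subunit. Members ran from 108 to 251 in WT, the Tle4cKO square lay left of the WT circle in all 69 pairs drawn, and Rpl17 and Rps2 have no square because their Tle4cKO peaks lay beyond 1000 bp of the gene ends.

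Of the stalk proteins, which recruit translation factors to the large subunit, Rplp2 and Rplp0 stood high and Rplp1 near the median. Rplp2 had a lead pileup of 217 in WT and 174 in Tle4cKO. Rplp0 had 213 and 202, and Rplp1 had 163 and 132. Of the large-subunit proteins, Rpl15 had the highest value in WT, with 226, and 201 in Tle4cKO, and shared its peak with an end of Nkiras1. Rpl13a, known for interferon-regulated translational silencing in myeloid cells, had 210 and 188. Rpl5 and Rpl11, which with 5S ribosomal RNA bind Mdm2 when ribosome assembly fails, lay near the middle, at 164 and 169 in WT and 121 and 130 in Tle4cKO. Rpl3, at the peptidyl transferase centre, had 145 and 111. The lowest large-subunit values in WT were those of Rpl6 (108, and 100 in Tle4cKO), Rpl29 (114 and 101) and Rpl35a (117 and 79). Rpl35a had the lowest Tle4cKO value of all members.

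In the small subunit, Rps19 had the highest pileup of the family, 251 in WT (chr7:24883689-24885304) and 209 in Tle4cKO. Its percentile rank was 99.95 among WT peaks and 99.86 among Tle4cKO peaks. Rps29 followed with 210 in WT and 201 in Tle4cKO. Rps6, the substrate of the S6 kinases, had 152 and 115, close to the family median in WT. Rps27a, translated as a fusion with ubiquitin, had 184 and 142. Rps3, at the messenger RNA entry channel, had 158 and 124, and Rps15, near the decoding site, 158 and 137. Rpsa, also known as the laminin receptor precursor, had 136 and 113. Rps28 lay at the low end, with 123 and 88. The order of members was much the same in both lists. Across the 72 members with overlapping lead peaks, log2 pileups in WT and Tle4cKO had a Pearson r of 0.933 and a Spearman rho of 0.924, as a description of 2 libraries over the same genes. Over 8797 other genes in the same pileup range r was 0.941.

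Of the members with a promoter entry and a lead peak, the lead peak covered an annotated start in 49 of 54 in WT and 48 of 53 in Tle4cKO. The exceptions were Rpl3l, Rpl4, Rps9, Rpl18 and Rpl19 in both lists, and the distances that follow leave them out. Around the start, the median lead peak ran from 645 bp upstream to 850 bp downstream in WT, and from 597 bp upstream to 757 bp downstream in Tle4cKO. The WT summit of these 49 lay a median of 80 bp downstream of the start, and within 200 bp of it in 39. It was upstream in 15 and downstream in 34. In Tle4cKO the median was 108 bp, with 35 of 48 within 200 bp. Since the nearest of several starts was used, these distances are the shortest the annotation allows. The highest WT value among the 49 was 1487 bp, at Rpl41, which encodes the smallest ribosomal protein. There the peak covered the whole gene of 1059 bp and an end of Zc3h10. Rps19 had its summit 344 bp upstream of the start in WT. An end of another protein-coding gene lay within 1000 bp of the WT lead peak in 23 members, and inside it in 18. In those 18 the peak cannot be assigned to the ribosomal protein gene alone.

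**Figure D3:**
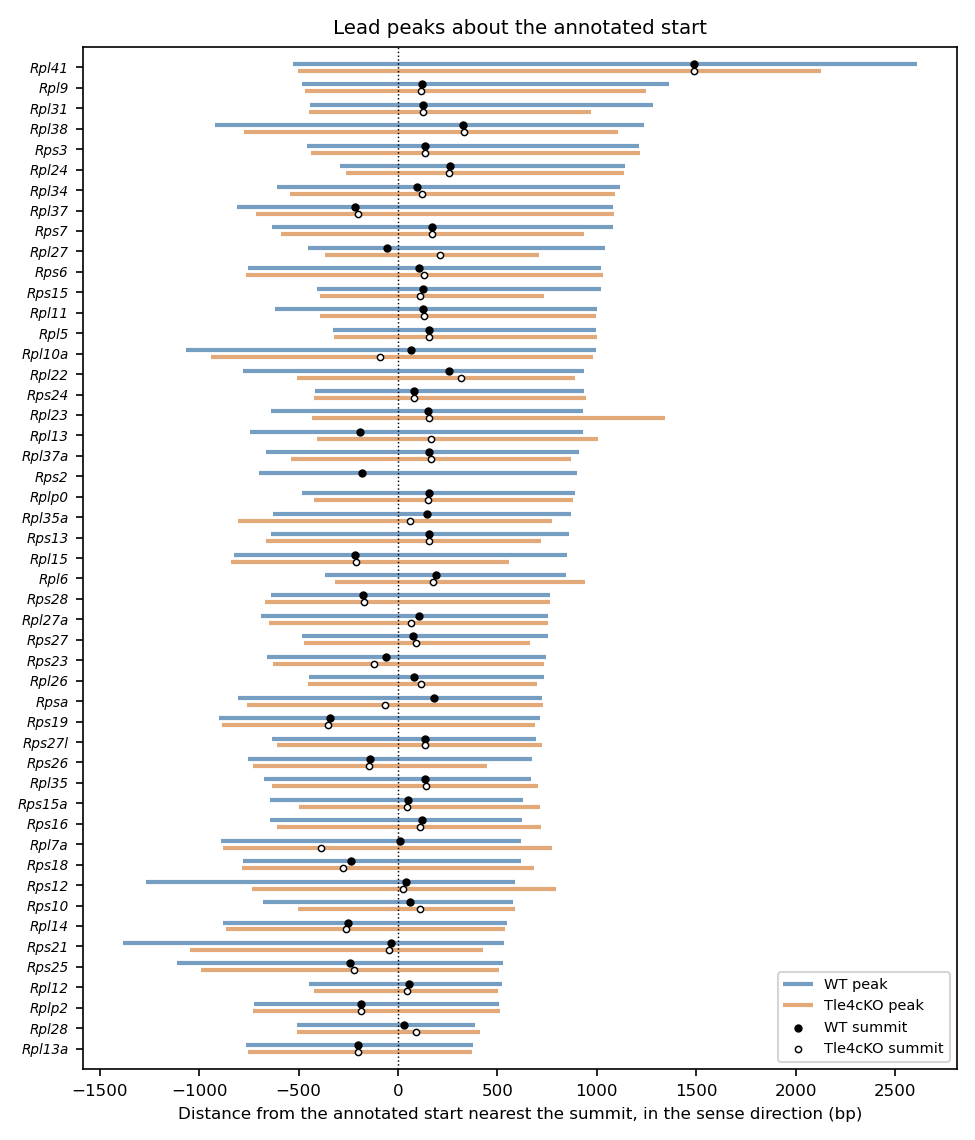
Extent (bars) and summit (points) of the lead peak in WT and Tle4cKO, as distance in bp from the annotated start nearest the summit, positive into the gene, for the 49 members with a promoter entry and a lead peak over the start. Most bars span about the same stretch in both libraries, from a median of 645 bp upstream to 850 bp downstream in WT, and Rpl41 reaches farthest into and past its gene.

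At Rpl4 and Rps9 the lead peak was at the downstream end, and the start had a lower peak. Rpl4, which lines the exit tunnel of the ribosome, had 149 in WT and 117 in Tle4cKO downstream, beside an end of Snapc5. Its start peak had 87 and 66. Rps9 had 139 and 112 downstream and 123 and 110 at the start. Rpl18 had a further peak inside the gene, over an annotated start, with 152 in WT and 119 in Tle4cKO, beside 147 and 121 at the gene end. Summits were at nearly the same base in both libraries: the median shift was 11 bp, and 57 of 72 pairs (79.2%) were within 50 bp, against 76.8% of other genes in the pileup range. The largest shifts were 1047 bp at Rpl7, where the peak also covers an end of Rdh10, 397 bp at Rpl7a and 358 bp at Rpl13.

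Most lead peaks were between 1 and 2 kb wide in both libraries, with 3 narrower and 6 wider in WT and 4 narrower and 4 wider in Tle4cKO. The median lead peak was 1500.5 bp wide in WT and 1400.5 bp in Tle4cKO, and all other genes had medians of 1431 bp and 1333 bp. Other genes with a WT lead pileup in the members' range had wider peaks, with medians of 1581 bp and 1478 bp. WT was wider in 54 of 72 pairs (75.0%), with a median Tle4cKO to WT width ratio of 0.953, and WT was wider in 74.1% of pairs of all other genes. The widest WT peak was at Rpl41 (3141 bp, and 2631 bp in Tle4cKO), followed by Rpl7 (2681 and 2651 bp). Rpl38, known for its part in translating Hox messenger RNAs, had 2157 and 1882 bp. Rpl3l had 2129 and 2120 bp, and Rpl10a 2061 and 1921 bp. The narrowest were Rps9 (852 and 801 bp) and Rpl28 (896 and 919 bp). Rpl12, at the base of the stalk, had 972 and 927 bp. Rpl4 had 1087 and 1304 bp, and Rpl23a, at the tunnel exit, 1099 and 979 bp. Rps27a stood apart in the plot of widths: its peak measured 1711 bp in the WT library and 2538 bp in the Tle4cKO library, from chr11:29547290-29549000 to chr11:29547376-29549913, with summits 5 bp apart. The peak also covers an end of Clhc1. Width and height were only loosely related across the 72 members in WT (Pearson r 0.155, Spearman rho 0.181, as a description).

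**Figure D4:**
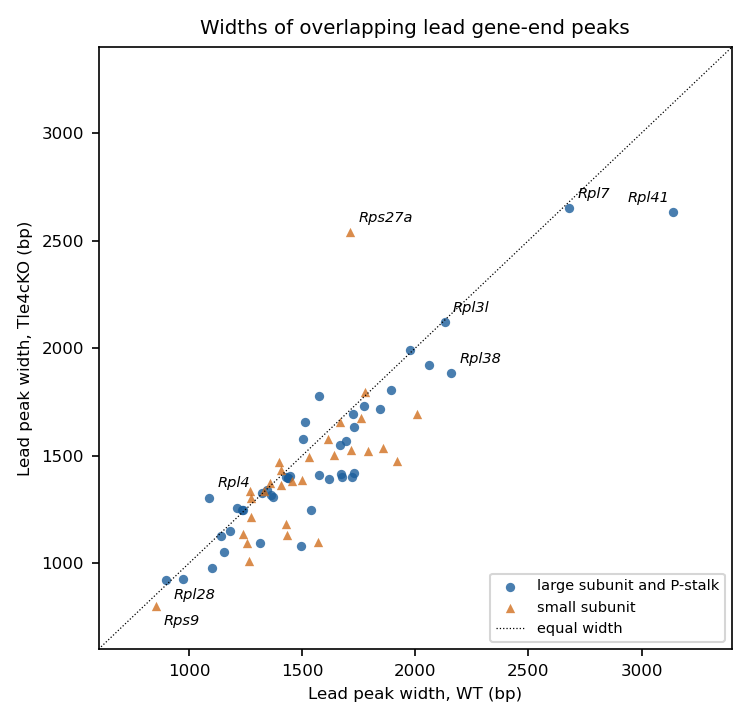
Width in bp of the lead gene-end peak in WT (x axis) and Tle4cKO (y axis) for the 72 members whose lead peaks overlap, by subunit, with the line of equal width. Most points lie just below the line (54 of 72 wider in WT), and Rps27a lies far above it, at 1711 bp and 2538 bp.

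The Tle4cKO pileup was below the WT pileup at all 72 ribosomal protein genes with overlapping lead peaks, and the median ratio was close to that of other genes of the same height. The raw Tle4cKO to WT ratio had a median of 0.808 over 72 lead pairs, with quartiles of 0.768 and 0.861 and a range of 0.633 to 0.957. It was below 1 in 72 of 72 pairs, against 97.6% of lead pairs of all genes and 99.9% of other genes in the members' pileup range. Their median ratio was 0.805. The mitochondrial ribosomal protein genes had 0.802 and the proteasome genes 0.820. Because no scaling between the lists is recorded, each ratio was also set against the median ratio of overlapping peak pairs of like summed pileup, taken in 50 bins. On this relative log2 scale the members had a median of 0.01, an SD over genes of 0.11 and a range of −0.28 to 0.30. Other genes in the same pileup range had a median of 0.00 and an SD of 0.12. The large subunit had a median of 0.01 and the small subunit 0.06.

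A relative change of at least 1.2-fold was seen for 1 of 72 members upward and 1 downward. Over all autosomal protein-coding genes it was seen for 5.60% of lead pairs upward and 5.81% downward, shares that include genes of much lower pileup. Among other genes in the members' pileup range the shares were 0.728% and 1.33%, beside 1.39% for the members in each direction. Against all overlapping pairs without bins, 9 members were higher and 0 lower. The median ratio of all those pairs was 0.741, below the 0.805 of other genes in the members' pileup range. With pileups summed over all gene-end peaks of a member, 2 were higher and 4 lower. No share over other genes was computed at these 2 settings, so neither count is read as a trait of the members. The member above the limit was Rpl6. Its lead peak had 108 in WT (chr5:121204136-121205346) and 100 in Tle4cKO, a ratio of 0.926 (95% Clopper-Pearson interval 0.698 to 1.23) where 0.754 was the median of like pairs. The relative fold was 1.23. The member below the limit was Rps16, whose tail reaches toward the transfer RNA in the peptidyl site. Its lead peak had 147 in WT (chr7:28350044-28351313) and 93 in Tle4cKO, a ratio of 0.633 (0.483 to 0.826) where 0.769 was the median of like pairs, and a relative fold of 0.822. Both intervals held the ratio of like pairs, as did those of all 72 members. A summit pileup is a maximum over the peak, so such an interval is approximate.

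Next in order above 0 were Rpl29 at 0.23 and, at 0.17 each, Rps26, at the messenger RNA exit channel, and Rps29. Next below 0 were Rpl38 and Rps23, a decoding-centre protein, at −0.14 each, and Rpl35a and Rpl23 at −0.13. Rpl23 is the protein that the anti-association factor Eif6 binds. Of the 72, 43 were above 0, 28 below and 1 at 0. The plot of relative ratios by gene group shows members of different roles on both sides of 0.

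**Figure D5:**
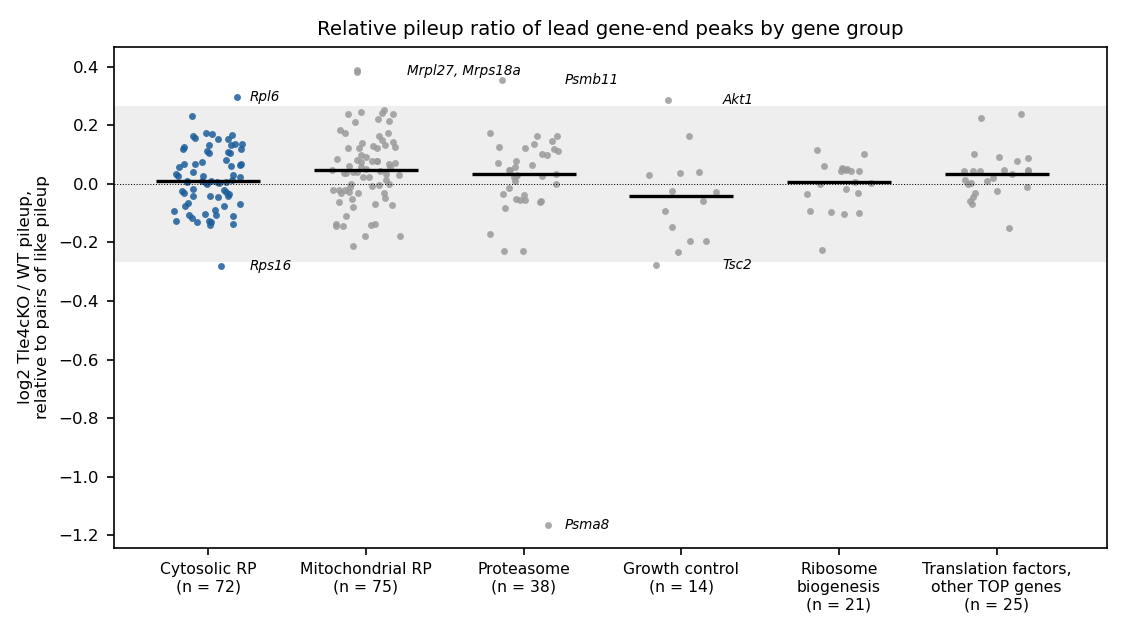
Relative log2 ratio of Tle4cKO to WT pileup of lead gene-end peaks (y axis) by gene group, each point a gene, bars at the group medians and grey shading within 1.2-fold; RP stands for ribosomal protein. The 72 cytosolic genes centre at 0.01 and span −0.28 (Rps16) to 0.30 (Rpl6), the names marking genes past 1.2-fold.

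Peaks listed in 1 library only were lower than the lead peaks. Over the gene spans plus 1 kb, 7 of 98 distinct WT peaks overlapped no Tle4cKO peak (7.14%, 95% Wilson interval 3.50 to 14.0%). The share over peaks at all autosomal protein-coding genes was 25.8%. In Tle4cKO, 4 of 95 overlapped no WT peak (4.21%, 1.65 to 10.3%), against 21.8%. For the groups that follow, a peak at several genes was counted at each of them. Counted so, the members had 7 of 99 (7.07%) in WT and 4 of 96 (4.17%) in Tle4cKO, against 25.2% and 21.3% over all genes. At the mitochondrial ribosomal protein genes, 11 of 156 WT peaks (7.05%) and 15 of 161 Tle4cKO peaks (9.32%) were in 1 list only. At the proteasome genes these were 23 of 110 (20.9%) and 17 of 104 (16.3%). For translation factors and other TOP genes they were 23 of 77 (29.9%) and 11 of 67 (16.4%). Ribosome biogenesis genes had 10 of 58 (17.2%) and 5 of 56 (8.93%). Other genes with a WT lead pileup in the members' range had 24.2% and 18.3%. Members are short, with a median of 3183 bp against 17491 bp over all genes. The shares were not compared at matched peak pileup or gene length. The WT-only peaks included those at Rpl3 (pileup 52), Rpl36 (45), Rpl3l (41), Rpl37a (36) and Rpl26 (34). Those at Rpl3, Rpl36 and Rpl37a lay inside the gene more than 1000 bp from its ends. The Tle4cKO-only peaks were at Rpl12 (56), Rpl35 (32), Rpl8 (20) and Rps24 (11). Over both lists the widths ran from 200 bp, the value at Rpl35, to 540 bp at Rpl26, while the lead peaks of the same genes were 972 to 2129 bp wide in WT. All 11 genes with a peak in 1 list only had an overlapping pair of lead peaks as well.

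Genes that work with the ribosomal proteins were counted in the same way. All 25 autosomal translation factor and other TOP genes had a gene-end peak in both libraries. Their lead pileups had medians of 171 and 140, with a median relative log2 ratio of 0.03, and 0 of 25 past 1.2-fold in either direction. Examples are Eef1a1, the elongation factor that delivers aminoacyl-tRNA (196 in WT, 178 in Tle4cKO), and Tpt1 (219 and 193). Of 23 ribosome biogenesis genes, 22 had a gene-end peak, and 0 of 21 lead pairs were past 1.2-fold. Ncl, which encodes nucleolin, had 215 and 197, and Nop56, a snoRNP core protein, 168 and 125. Ubtf, the ribosomal DNA transcription factor, had no gene-end peak, but 2 peaks in WT and 4 in Tle4cKO in its span plus 1 kb. Of 15 genes listed under growth control, 14 had one. The list includes Pdk1, the symbol of a pyruvate dehydrogenase kinase gene, which stays in these counts. Akt1 (115 in WT, 107 in Tle4cKO, relative fold 1.22) was above the limit and Tsc2, an mTORC1 inhibitor (114 and 69, relative fold 0.825), below it. Larp1, which binds TOP tracts, had no gene-end peak in either list, but 17 peaks in WT and 14 in Tle4cKO in its span plus 1 kb.

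Ribosomal protein genes that the rule leaves out gave values in the same range, with an exception. Fau, which encodes a ubiquitin-like fusion, had 121 in WT and 109 in Tle4cKO, Rack1 138 and 106, and Rps3a1 181 and 141. The X-linked Rps4x had 88 in WT, below every autosomal member, and 85 in Tle4cKO, a relative fold of 1.32. The other X-linked genes Rpl10, Rpl36a (152 and 128) and Rpl39 were within the range of the autosomal members. All mice were male, and levels on X and on autosomes were not compared per gene copy.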

How the data were processed

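ATAC-seq peaks were analysed from 2 lists, 1 per genotype, each from the pooled cells of 2 mice. The authors deposited, per the file headers, each peak's position, width in bp, summit and summit pileup, a signal in whole numbers of at least 7. Per the submitters' processing notes, the tools were MACS2 2.1.1, Bowtie2 2.2.5, cutadapt 1.14, HOMER 4.7.2, edgeR 3.28.1 and featureCounts 1.5.0, with mm10 as the build and no roles stated. No source used here gives the calling thresholds, read shifting, duplicate handling, read totals or scaling of the libraries, so the depth behind each pileup is unknown.

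Members and gene lists were chosen with earlier results of these data known. Peaks were assigned to genes within 1000 bp of an annotated end (lead peak: highest pileup) or within the span plus 1 kb, using RefSeq positions of GRCm38.p6. Peaks of the lists were paired, or counted as shared, at an overlap of at least 1 bp, and 92327 reciprocal pairs in 50 bins of summed pileup gave the median ratio of like pairs. Genes named with values were those without a peak or with a peak in 1 list only, the 5 highest and 5 lowest by pileup, width and relative ratio, and members of textbook role. Rpl17, Rps2, Rpl18, Rpl7a and Rpl13, and the promoters to print, were picked after their values were seen. Some genes that this rule names are not reported here, though they stay in all counts and medians. Shares have Wilson and pileup ratios exact Clopper-Pearson intervals (95%). Pileups are as the authors gave them. Alternatives covered the gene-end distance, the summing of peaks, the reference for ratios, the fold and the flank. Python 3.11.15, numpy 2.4.6, pandas 2.3.3, SciPy 1.17.1 and matplotlib 3.10.9 were used. The ratio step was tested on simulated pileups, and the overlap and lead-peak rules on a small made-up list. The reciprocal pairing was not tested on simulated data. Read counts were not analysed here.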

Additional observations from a re-analysis of the deposited data

How the results depend on the processing

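Of 79 values computed under alternative settings, 66 stayed within the limits set for them and 13 moved beyond. Counts and widths were judged by a 1.5-fold change, pileups and ratios by counting intervals. The interval for a ratio was that of a single pair at the median pileups, which is wide for a median over many genes. A median relative log2 ratio of 0.12 still counted as within it, so this is a weak check of the medians. The difference of percentile ranks, on another scale, was counted as moved. With pileups summed over gene-end peaks, members past 1.2-fold were 2 higher and 4 lower, and against all reciprocal pairs without bins 9 higher and 0 lower, where the median relative log2 ratio was 0.12. A limit of 1.1-fold gave 9 higher and 2 lower, and 1.5-fold gave 0 and 0. As a difference of percentile ranks, the median was 0.188 percentile points. WT-only peaks numbered 3 when peaks within 500 bp counted as shared, 4 in the gene span alone and 45 within 10 kb of the span, where Tle4cKO-only peaks numbered 34. For these settings, and for the folds and references above, no shares over other genes were computed. The setting that took any peak in the span plus 1 kb was chosen after seeing the data, and gave 74 members in each list. No paired analysis was possible because each genotype has 1 library, and no replicate could be left out for the same reason. No source used here gives read totals, so the depth that limits weak peaks is unknown, and a lower pileup in 1 list cannot be told apart from a shallower library. Of the 77 members, 20 had no promoter entry, so their strand and sequence were not analysed here.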

Other observations

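A palindrome of 8 bases, CTCGCGAG, was noticed in several of the printed promoters and was searched after they had been seen, so its count is a description of a feature picked from these sequences. It was found in 7 of the 57 member promoters (12.3%, 95% Wilson interval 6.08 to 23.2%). It occurred in 0.944% of all 27025 promoters, in 1.78% of the 12693 with the start inside a WT peak, and in 2 of 69 promoters of mitochondrial ribosomal protein genes (2.90%). The 7 were Rpl10a, Rpl12, Rpl26, Rpl27a, Rps6, Rps19 and Rps28, and the first match began between 0 and 53 bases before the annotated start. A stretch of 60 bases around it is shown for 4 of them, sense strand, 5′ to 3′, with each match in capitals; Rps19, the gene of highest pileup, is shown because it held 2 matches.
Rps19: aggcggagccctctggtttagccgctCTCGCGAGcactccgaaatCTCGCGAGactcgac
Rpl10a: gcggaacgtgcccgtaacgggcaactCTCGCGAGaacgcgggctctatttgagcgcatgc
Rpl12: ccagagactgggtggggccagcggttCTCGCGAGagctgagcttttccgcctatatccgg
Rpl26: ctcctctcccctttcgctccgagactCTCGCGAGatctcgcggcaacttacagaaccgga
The stretches lie at chr7:24884540-24884599, chr17:28328509-28328568, chr2:32961633-32961692 and chr11:68901515-68901574 of GRCm38.p6, all on the plus strand, with sequences from RefSeq. Lead peaks were compared among members where they overlapped and lay within 1000 bp of an annotated start or of the upstream gene end. Rpl18 and Rpl19, whose lead peaks cover no annotated start, are included. The 7 with the palindrome had a median WT pileup of 152 (123 to 251) and a median relative log2 ratio of −0.05. The 43 without it had 157 (108 to 226) and 0.02.

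The members also differ from other genes in what their bodies hold. Within the annotated span of 27 of the 77 (35.1%) lay at least 1 snoRNA gene, 56 in all, and 355 autosomal protein-coding genes (1.72%) held any. The median member was 3183 bp long, against 17491 bp over all genes. Rpl13a held 4 snoRNA genes, Snord32a, Snord33, Snord34 and Snord35a, in a gene with lead pileups of 210 in WT and 188 in Tle4cKO. Pseudogenes of these genes were mostly without a peak. Of 206 annotated autosomal ribosomal protein pseudogenes more than 1 kb from any protein-coding gene, 25 had a peak in the span plus 1 kb in WT (12.1%) and 26 in Tle4cKO (12.6%). A peak overlapped the pseudogene itself in 9 (4.37%) and 8 (3.88%). No share over other pseudogenes or over stretches of like length was computed, so these shares have no background. No source used here says how reads that map to several places were handled, and their part in these shares was not tested. The highest peak counted, near Rpl30-ps5 (chr2:174440887-174441355), had a pileup of 208 in WT (chr2:174436001-174440402) and 173 in Tle4cKO (chr2:174436036-174440109), and did not reach the pseudogene in either list.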
